A study of Brassica rapa with 23 samples.

Results

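RNA-Seq of Brassica rapa leaf discs treated with the bacterial peptide flg22 was used to ask how transcript levels moved between 30 and 180 min of treatment. The comparison holds 6 of the 23 libraries of the series, namely the 3 labelled flg22 at 180 min and the 3 labelled flg22 at 30 min, and they were chosen by their labels alone. All plants were wild type (the commercial cultivar Norang), were grown on soil under short days for 17 days, and gave tissue of the first true leaf. Discs received 100 nM flg22 dissolved in water, and each library was made from a pool of discs that the labels call a separate biological replicate. The other libraries serve only for comparison: discs from the same kind of plants given water alone for 30 min (5 libraries) or 180 min (6 libraries), or 100 µg per ml chitin for 30 min (3 libraries) or 180 min (3 libraries). Every group therefore shares the cutting of the discs and the incubation in liquid.

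Flg22 is a conserved stretch of flagellin, the protein of the bacterial flagellum. In Arabidopsis thaliana it is bound by the receptor kinase FLS2, whose activation leads within minutes to calcium influx, an oxidative burst, activation of MAP kinases and broad reprogramming of transcription. Chitin, a polymer of fungal cell walls, is perceived there by the LysM receptor kinases LYK5 and CERK1, and the resulting early response resembles that to flg22. Early transcripts of pattern-triggered immunity, such as NHL10, are known in Arabidopsis for a rapid and transient rise.

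Expression is given as FPKM, the fragments of a gene relative to its length and to all fragments of the library. Changes are differences of log2(FPKM + 1) between 180 and 30 min, on which changes at low FPKM appear smaller than they are. An SE given with a change comes from 1 fit over all 23 libraries. It pools the spread of every condition and is not the spread of the flg22 replicates alone. A gene "rose" or "fell" where the fold on that scale was at least 2 and the Benjamini-Hochberg adjusted p of limma, over the 22304 genes that reached 1 FPKM in 3 or more of the 6 flg22 libraries, was under 0.05. Because a library's FPKM values depend on each other, counts of calls and the values of single genes are mostly also given after median-ratio scaling, which divides a library by its median ratio to the mean of all libraries. The median difference over all tested genes was 0.46 on the deposited FPKM and -0.00 after this scaling, and a change of 0.46 on the deposited scale is thus the shift of the typical gene.

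The 6 flg22 libraries held 4.11 to 5.34 gigabases of aligned sequence, within the range of all libraries (4.09 to 5.64). Replicates at 180 min were closer to each other than those at 30 min, with pairwise correlations across genes of 0.985 to 0.989 against 0.957 to 0.978, and with a median SD of 0.14 against 0.24 on the log2 scale. Between 30.1% and 33.2% of the 41020 genes were listed at 0 in a library, and a 0 in these files can be a failed estimate. The identifiers of leaf marker genes are not paired with names in the sources used here, so the tissue label was not checked against markers. In such bulk tissue, fewer cells of a type and less RNA per cell cannot be told apart.

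Between 30 and 180 min of flg22, 4998 genes rose (22.4% of those tested) and 2577 fell (11.6%) on the deposited FPKM. After median-ratio scaling the balance turned over: 2115 genes rose (9.48%) and 3968 fell (17.8%), so that the share of rises among all calls was 66.0% on the deposited scale and 34.8% after scaling. All 2115 rises of the scaled values were among the rises of the deposited values, all 2577 falls of the deposited values were among the falls of the scaled values, and no gene was called in opposite directions. These 2115 and 2577 genes are the ones described below as having risen or fallen on both scales. At any size of change, 11067 genes were higher and 3887 lower with an adjusted p under 0.05 on the deposited FPKM, against 6274 and 6644 after scaling. The 3 libraries of 180 min lay wholly above the 3 of 30 min for 54% of the tested genes and wholly below them for 20.4%.

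**Figure D1:**
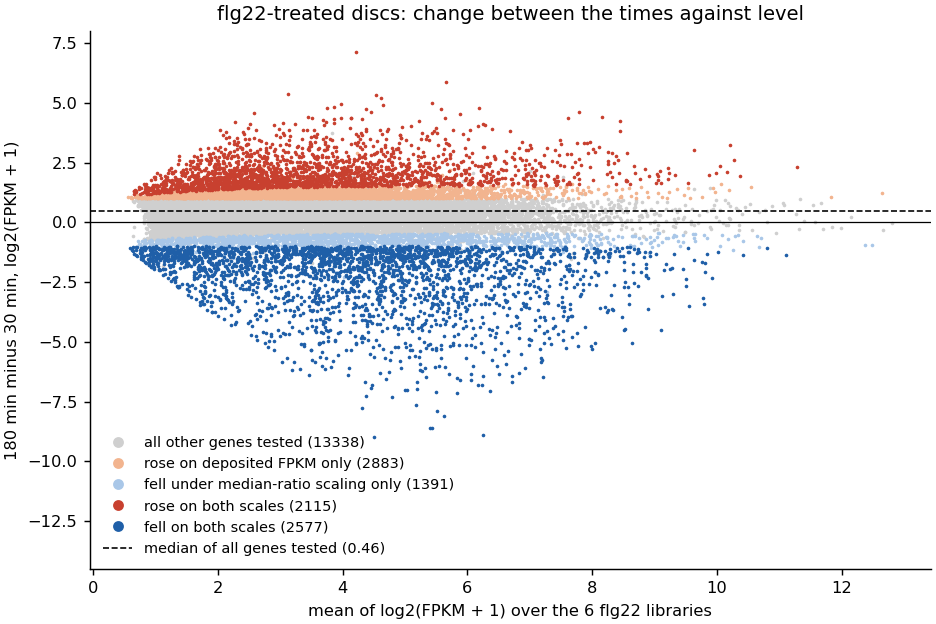
Difference between 180 and 30 min of flg22 in log2(FPKM + 1) (vertical axis) against the mean of log2(FPKM + 1) over the 6 flg22 libraries (horizontal axis), with 1 point per tested gene. The dashed line marks the median of all tested genes (0.46); the 2115 genes in dark red rose and the 2577 in dark blue fell on both scales, while the pale colours mark genes called on one scale only.

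Falls reached further than rises. On the deposited FPKM, 898 genes rose and 1115 fell by at least 4-fold, 214 rose and 613 fell by at least 8-fold, and 42 rose and 295 fell by at least 16-fold. With scaling the same limits gave 468 rises and 1606 falls, 110 and 809, and 18 and 419. The excess of falls at 4-fold and beyond was therefore present on both scales, whereas the direction of the excess at 2-fold depended on the scale.

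**Figure D2:**
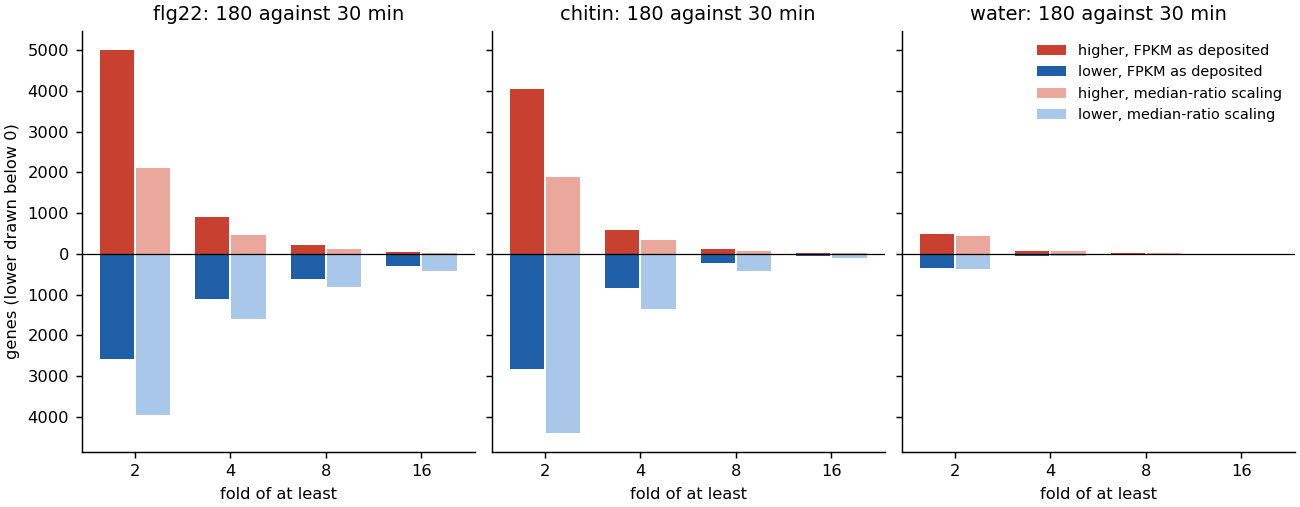
Number of genes called higher (above 0) or lower (below 0) at 180 than at 30 min with flg22, chitin or water, by the fold they had to reach (horizontal axis), on deposited FPKM (dark) and after median-ratio scaling (pale). With flg22 the bars at 2-fold change from 4998 higher and 2577 lower to 2115 and 3968, while at 16-fold the lower genes prevail on both scales (295 against 42, and 419 against 18).

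The genes that fell took up a large part of the early transcript pool. The 2577 genes that fell on both scales made up 37.5%, 37.0% and 35.5% of all TPM in the replicates at 30 min, and 7.52%, 6.68% and 6.53% at 180 min. The 2115 genes that rose on both scales went from 3.29%, 3.24% and 3.97% to 17.4%, 18.5% and 18.5%. These values describe how the genes were chosen and carry no test. Libraries that did not enter that choice give the reference: in water the first set held 12.8% to 19.7% at 30 min and 9.39% to 14.7% at 180 min, and the second 5.21% to 8.27% and 8.39% to 13.4%. At 30 min of flg22 the falling set was thus above, and at 180 min below, every water library, and the rising set the reverse.

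The genes that moved furthest were set against water in the same way. The 295 genes that fell at least 16-fold on both scales had a median FPKM of 184.8 to 212.4 in the libraries of 30 min and of 3.36 to 6.48 in those of 180 min. In water their median was 3.23 to 6.36 at 30 min and 2.88 to 7.44 at 180 min, so the flg22 libraries of 180 min lay within the range of water. With chitin it was 107 to 143 at 30 min and 11.1 to 13.8 at 180 min, above every water library at both times. The median of the 110 genes that rose at least 8-fold on both scales went from 2.09 to 3.63 FPKM at 30 min to 58.5 to 71.2 at 180 min with flg22. In water their median was 8.84 to 25.9 at 30 min and 23.2 to 54.2 at 180 min. The median of the set was thus below every water library at 30 min of flg22 and above every one at 180 min. Single members depart from this, as Bra035897 does below, and the set was chosen with the flg22 values. For all 22304 tested genes the median FPKM was 7.96 to 8.90 at 30 min and 11.1 to 11.6 at 180 min of flg22, and 9.66 to 12.2 and 10.3 to 11.9 in water.

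**Figure D3:**
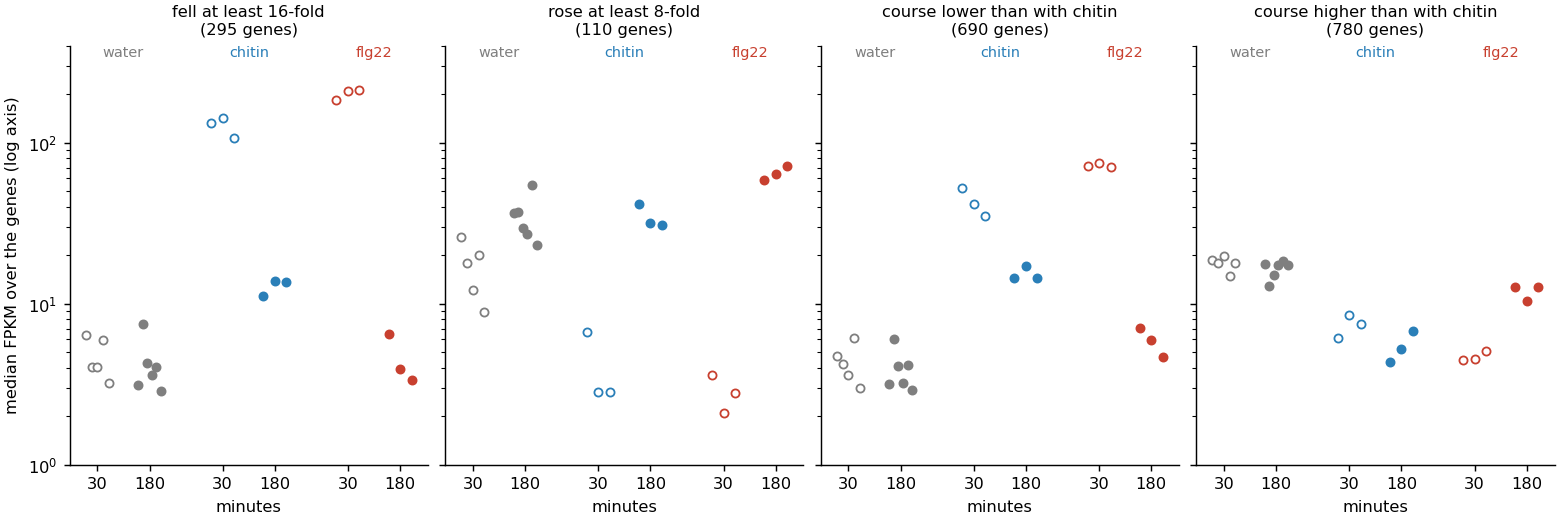
Median FPKM over the genes of 4 sets in each library (log axis), by treatment and time (open points 30 min, filled points 180 min). The median of the 295 genes that fell at least 16-fold starts near 200 with flg22 and ends among the water libraries. The median of the 110 that rose at least 8-fold starts below the water libraries and ends above them. The sets were chosen with the flg22 values, and the last 2 also with the chitin values.

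Falls were more frequent among genes with a high mean over the flg22 libraries, and both falls and rises were more frequent among short genes. Of the genes with a mean FPKM below 3 over the flg22 libraries 7.10% fell on both scales, against 29.4% of those at 100 and above, whereas rises on both scales made up 6.49% and 11.3%. Of the genes whose locus spans up to 500 bp 19.1% fell and 12.6% rose, against 6.96% and 5.68% of those over 4000 bp. The median span was 1485 bp for genes that fell, 1573 bp for genes that rose and 1741 bp for all tested genes. Of the 50 genes with the highest mean FPKM at 30 min, 22 fell and 0 rose on both scales, and 22 were again among the top 50 at 180 min. Of those top 50 at 180 min, 10 had risen and 1 had fallen. Ranking by the level at 1 time favours genes that are higher at that time, so these counts are a description. The mean over the flg22 libraries likewise holds the 30 min values by which the falling genes were called. In water at 30 min the genes that fell on both scales had a median of 8.49 to 10.5 FPKM, against 9.66 to 12.2 for all tested genes. The chromosomes A01 to A10 did not stand apart, with 8.51% to 10.5% of their tested genes rising and 9.20% to 12.4% falling.

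Genes that moved also lay next to each other. The next gene along the chromosome had fallen too for 311 of 1514 falling genes (20.5%), while 11.5% of all 13122 tested neighbours had fallen. For rising genes it was 188 of 1246 (15.1%) against 9.34%. Of these pairs, 4 and 2 had FPKM values within 1.25-fold of each other in all 6 libraries, as reads split between copies could give. The longest run was 6 falling genes, Bra016255 to Bra016250, on A07 from 21910821 to 21929606 (v1.5 build), with changes between -5.07 and -1.5. The longest runs of rising genes held 4 genes, and the one with the largest rise, Bra025194 to Bra025191 on A06 from 21766056 to 21792845, had changes of 1.82 to 4.13. The runs were found after their values were seen.

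Only 1 of the 41020 identifiers could be paired with a gene name in the reference table used here, so the leading genes are given by identifier alone. Among genes with a mean FPKM of at least 10, no library at 0 and no overlap between the times, Bra035897 (A09, 3621400 to 3621999) had the largest rise. Its FPKM was 0.544, 0.434 and 0.691 in the replicates at 30 min and 171.8, 197.4 and 310.2 at 180 min, a log2 change of 7.15 ± 1.11 (SE; adjusted p = 1.24e-05) and of 6.82 after scaling. Bra035897 also rose in water, by 5.31 ± 0.82, where its libraries ran from 0 to 3.47 FPKM at 30 min and from 8.55 to 346 at 180 min, and the 2 courses differed by 1.84 ± 1.38 (adjusted p = 0.267). The gene next in order, Bra035183 (A07, 25769175 to 25770254), went from 16.4, 4.09 and 2.20 FPKM to 367, 413 and 382. Its rise of 5.88 ± 0.67 (adjusted p = 3.04e-07, and 5.39 after scaling) exceeded the rise of 2.29 ± 0.50 in water (difference 3.59 ± 0.84, adjusted p = 0.00134). Both leading rises were thus of genes that also rose with time in water.

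Bra013815 (A01, 7907694 to 7908641) had the largest fall. Its FPKM was 1408, 1995 and 1669 at 30 min, above every other library of the series, and 6.66, 1.51 and 1.15 at 180 min, where the means differed 544-fold. The change was -8.92 ± 0.55 (adjusted p = 4.23e-11) and -9.40 after scaling. At 180 min the gene was 1.58 ± 0.48 on the log2 scale below its level in water (adjusted p = 0.0118), where it measured 4.91 to 23.4 FPKM. Bra022606 (A02, 7567180 to 7567464) followed, from 952, 844 and 758 FPKM to 4.47, 0.653 and 0.171, a change of -8.59 ± 0.51 (adjusted p = 2.3e-11, and -9.03 after scaling). Its neighbour Bra022605 (A02, 7569840 to 7570330) had nearly the same values, 919, 822 and 756 FPKM against 4.40, 0.582 and 0.175, and the share of reads that belongs to each of the 2 is uncertain. Bra022605 also had the largest negative difference from the course in water, -9.01 ± 0.62 (adjusted p = 5.98e-10, and -9.41 after scaling).

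Bra017975 (A06, 8922827 to 8923120) had the largest positive difference from the water course. Its 3 libraries at 30 min of flg22 had 0.522, 0.527 and 0.0586 FPKM and those at 180 min 30.7, 72.7 and 75.1, while water went from 33.4 ± 5.14 (SD, n = 5) to 15.7 ± 5.73 (SD, n = 6). The course rose by 5.38 ± 0.69 (adjusted p = 1.35e-06, and 5.08 after scaling) and differed from that in water by 6.47 ± 0.86 (adjusted p = 4.51e-06, and 6.20 after scaling). At 30 min every flg22 library was below every water library of that time, and at 180 min every one was above. One further gene, Bra017264, singled out after its values were seen, was at 493, 501 and 537 FPKM at 30 min and listed at 0 in all 3 libraries of 180 min, which gives no fold. No tested gene had the reverse pattern, listed at 0 in all 3 libraries at 30 min and at least 10 FPKM in all 3 at 180 min.

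Marker and qRT-PCR genes of the study are described next, since their transcripts can be followed with primers. The primer pairs of the 3 whose levels moved furthest, written 5′ to 3′ as ordered by the study, were the following.
BraNHL10 (Bra017272) forward: ttcaacgccggagagttacg
BraNHL10 (Bra017272) reverse: tccccaagcttaaacctaaccc
Bra010367 forward: atggtaatcgtggcgttgtt
Bra010367 reverse: ccaaacgctgaaaccaaaa
Bra020747 forward: tcaatcccaaaaggttggag
Bra020747 reverse: tccacccccaaagagtaaga
Bra017272 lies on A04 from 15740520 to 15741203, Bra010367 on A08 from 13373824 to 13374042 and Bra020747 on A02 from 22780454 to 22783117 of the v1.5 build.

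Of the 5 marker and qRT-PCR genes, all of them tested, 1 rose and 2 fell on both scales, with a median change of -0.37 (-0.84 after scaling) beside 0.46 (-0.00) over all tested genes. Of all tested genes 9.48% rose and 11.6% fell on both scales, and a departure from these shares was not tested. BraNHL10, the homolog of an Arabidopsis marker gene of the early immune response, fell. Its FPKM was 961, 1094 and 977 at 30 min and 94.3, 84.4 and 79.8 at 180 min. The replicates of each time were close and far from those of the other, with means 11.7-fold apart. The change was -3.54 ± 0.54 (adjusted p = 9.66e-06) and -4.08 after scaling, and it differed from the course in water by -3.23 ± 0.67 (adjusted p = 0.00045, and -3.76 after scaling). In water BraNHL10 ranged from 3.02 to 14.9 FPKM at 30 min and from 3.12 to 17.5 at 180 min, so after 180 min of flg22 the level had come down without reaching that of water (3.62 ± 0.46 above it on the log2 scale, adjusted p = 6.05e-06).

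Bra010367 fell more steeply. It went from 934, 773 and 767 FPKM to 16.3, 8.43 and 5.39, a change of -6.34 ± 0.38 (adjusted p = 3.19e-11, and -6.87 after scaling). In water it measured at most 1.59 FPKM at 30 min and 2.35 at 180 min, below every flg22 library of either time. Bra031321 did not take part in the fall: its libraries had 242, 160 and 109 FPKM at 30 min and 143, 160 and 98.7 at 180 min. The times overlapped, the change was -0.30 ± 0.34 (adjusted p = 0.438, and -0.84 after scaling, adjusted p = 0.043), and every flg22 library lay above the highest water value of 4.98 FPKM.

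Bra020747 rose from 0.0996, 0.192 and 0.273 FPKM to 12.6, 17.1 and 12.7, and its means differed 75.0-fold. On the log2(FPKM + 1) scale the rise was 3.66 ± 0.28 (adjusted p = 1.02e-09, and 3.42 after scaling). Water libraries had 4.73 to 12.0 FPKM at 30 min and 6.78 to 13.7 at 180 min, so the gene was below all of them early and within or above their range later. Bra009738 stayed low with flg22, at 2.43, 5.78 and 3.11 FPKM against 2.15, 2.43 and 3.11 (-0.37 ± 0.52, adjusted p = 0.543, and -0.78 after scaling). In water the same gene rose by 3.28 ± 0.39 (adjusted p = 3.72e-05), from 7.68 ± 6.01 (SD, n = 5) to 72.3 ± 28.9 (SD, n = 6), and the courses differed by -3.65 ± 0.65 (adjusted p = 0.000108). BraEF1α (Bra006661), an elongation factor gene that served the study as its qRT-PCR reference, had 115, 194 and 208 FPKM at 30 min and 228, 248 and 255 at 180 min. Its difference was 0.54 ± 0.26 on the deposited FPKM (adjusted p = 0.0681), close to the median of all genes, and -0.00 after scaling. Without replicate 3 of 30 min it was 0.70 (adjusted p = 0.0357).

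**Figure D4:**
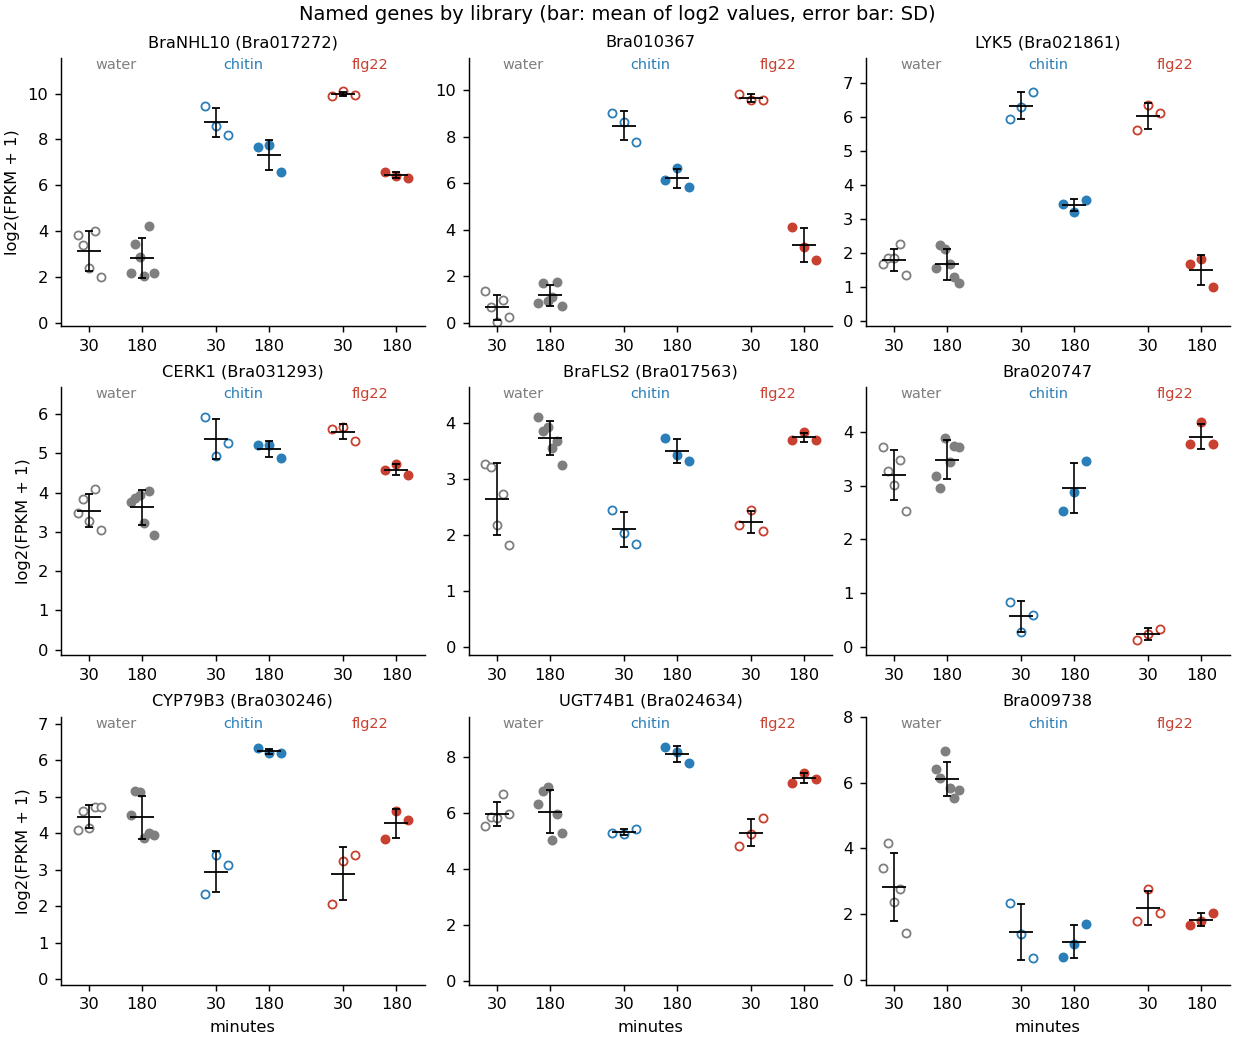
Expression of 9 named genes in every library as log2(FPKM + 1), by treatment and minutes (open points 30 min, filled points 180 min; bars are means and error bars SDs of the log2 values). BraNHL10, Bra010367 and LYK5 fall with flg22 from levels far above water, Bra020747 rises from below water, and Bra009738 stays low with flg22 while it rises in water.

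Homologs of pattern receptors were next examined, 12 genes of which 8 passed the filter on low values. Of these 8, 1 rose and 1 fell on the deposited FPKM, and 1 rose and 2 fell after scaling, with a median change of 0.26 (-0.27 after scaling). Over all tested genes 22.4% rose and 11.6% fell on the deposited FPKM, and 9.48% and 17.8% after scaling. A departure of the receptor homologs from these shares was not tested. Among the homologs of chitin receptors, LYK5 (Bra021861; A04, 15018935 to 15023059), a LysM receptor kinase that binds chitin in Arabidopsis, fell. It had 48.4, 80.6 and 69.2 FPKM at 30 min and 2.22, 2.54 and 1.00 at 180 min, a 34.4-fold difference of the means and a change of -4.53 ± 0.30 (adjusted p = 9.13e-11, and -5.00 after scaling). At 180 min the level was within the water range of 1.15 to 3.75 FPKM except for the third replicate, which was just below it. CERK1 (Bra031293; A05, 16977701 to 16980704), the kinase that transmits the chitin signal in Arabidopsis, had 48.6, 50.3 and 39.1 FPKM at 30 min and 22.8, 25.7 and 20.8 at 180 min. The times did not overlap, and the change of -0.96 ± 0.29 (adjusted p = 0.00659) missed the 2-fold limit on the deposited FPKM and passed it after scaling (-1.49, adjusted p = 8.14e-05).

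CERK1 and LYK5 ended at different distances from water. CERK1 was still 0.96 ± 0.25 above water at 180 min (adjusted p = 0.0044), where its water libraries had 6.51 to 15.4 FPKM, while LYK5 differed from water by -0.16 ± 0.26 (adjusted p = 0.637). The 2 copies of LYM2, which in Arabidopsis encodes a chitin-binding LysM protein, passed no limit. Bra002021 had 7.12, 6.11 and 4.59 FPKM against 7.77, 9.69 and 6.58 (0.38 ± 0.31, adjusted p = 0.285, turning to -0.10 after scaling), and Bra009660 had 54.2, 53.1 and 50.5 against 64.3, 66.9 and 67.3 (0.33 ± 0.24, adjusted p = 0.241, turning to -0.21 after scaling).

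Among the homologs of receptors of bacterial patterns, BraFLS2 (Bra017563; A09, 12614687 to 12620601), the homolog of the flg22 receptor, rose. Its FPKM was 3.55, 4.44 and 3.18 at 30 min and 12.0, 13.3 and 12.0 at 180 min, without overlap, a change of 1.51 ± 0.29 (adjusted p = 0.000146, and 1.05 after scaling). BraFLS2 rose with time in water as well (1.09 ± 0.22, adjusted p = 0.00225), and the difference between the courses was 0.43 ± 0.37 (adjusted p = 0.334), or -0.00 after scaling. The second FLS2 copy, Bra022032, and BraEFR1 (Bra006560) were listed at 0 in all 23 libraries. BraEFR2 (Bra002305; A10, 10459324 to 10462502), a homolog of the receptor of bacterial elongation factor Tu, had 0.926, 1.27 and 1.53 FPKM at 30 min and 3.54, 3.52 and 2.52 at 180 min. Its difference of 0.90 ± 0.18 (adjusted p = 0.000197, and 0.56 after scaling) stayed under the 2-fold limit, while its linear means differed 2.57-fold. Against the course of BraEFR2 in water, which was -0.21 ± 0.13, the difference was 1.11 ± 0.22 (adjusted p = 0.000364, and 0.77 after scaling).

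The remaining receptor homologs moved little. LORE (Bra031434), whose Arabidopsis counterpart senses bacterial lipid compounds, had 24.4 to 34.3 FPKM at 30 min and 32.2 to 34.1 at 180 min (0.20 ± 0.31, adjusted p = 0.58, turning to -0.33 after scaling). LYM1 (Bra016402), related to a LysM protein that binds peptidoglycan in Arabidopsis, had 3.16 to 5.53 FPKM and 2.83 to 4.27 FPKM, with overlap (-0.27 ± 0.21, adjusted p = 0.269, and -0.70 after scaling, adjusted p = 0.00578). The other LYM1 copy, Bra017956, and the LYM3 homolog, Bra008320, were below the filter, with at most 0.601 and 0.841 FPKM in any flg22 library.

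Glucosinolates are sulphur-containing defence compounds of the Brassicaceae, and 3 gene copies of their biosynthesis are named by identifier in the study. It named them as copies differentially expressed only at 180 min of chitin, so they do not stand for the glucosinolate genes at large. All 3 were tested and 2 rose on the deposited FPKM, 1 of them also after scaling, beside 22.4% and 9.48% of all tested genes. Their median change was 1.38 (0.89 after scaling). UGT74B1 (Bra024634; A09, 25123658 to 25125223), a glucosyltransferase of the core pathway, had 27.6, 37.4 and 55.7 FPKM at 30 min and 134.5, 171.8 and 150.1 at 180 min. It rose by 1.94 ± 0.39 (adjusted p = 0.000223, and 1.41 after scaling) and went further than in water by 1.86 ± 0.49 (adjusted p = 0.00336, and 1.36 after scaling). At 180 min of flg22 UGT74B1 was 1.20 ± 0.34 above all water libraries of that time (adjusted p = 0.00786, and 1.14 after scaling). The study used another test and separate water controls. By qRT-PCR in other biological samples it also reported this gene as upregulated only with chitin. CYP79B3 (Bra030246; A04, 10022729 to 10024935), a cytochrome P450 that acts on tryptophan at the start of the indolic branch, had 3.15, 8.42 and 9.59 FPKM against 13.3, 23.4 and 19.8. It rose by 1.38 ± 0.38 (adjusted p = 0.00316), and after scaling by 0.89, under the 2-fold limit (adjusted p = 0.0426). The replicates at 180 min were within or just below the water range of 13.7 to 34.6 FPKM and those at 30 min below the water range of 16.0 to 25.5. APK2 (Bra017872), a kinase that helps supply the sulphate donor, had 13.3, 12.6 and 15.5 FPKM against 17.6, 28.6 and 19.9 (0.62 ± 0.41, adjusted p = 0.184, and 0.10 after scaling).

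Neither of the 2 further enzymes named in the study passed the limits in the fit over all libraries. The study reported both as upregulated only with chitin, also by qRT-PCR in other biological samples. S-adenosylmethionine synthase 3 (Bra017219), which makes the methyl donor of the cell, had 23.0, 28.3 and 50.2 FPKM at 30 min and 63.3, 75.5 and 58.8 at 180 min, without overlap. Its difference was 1.01 ± 0.47 (adjusted p = 0.0631, and 0.48 after scaling), and without replicate 3 of 30 min it was 1.33 (adjusted p = 0.0293). Fitted on the 6 flg22 libraries alone, the same difference passed (adjusted p = 0.00925, or 0.0095 with the replicate number as a block as well). That fit without the block also gave an adjusted p under 0.05 for APK2 (0.0212), Bra000310 (0.0427) and the LYM2 copy Bra009660 (0.0411), with changes that stayed under 2-fold. The endochitinase gene Bra000310, of an enzyme class that cleaves chitin, had 32.0, 26.0 and 23.3 FPKM against 35.8, 32.7 and 43.1 (0.45 ± 0.26, adjusted p = 0.138, turning to -0.09 after scaling). At 180 min of flg22, S-adenosylmethionine synthase 3 was 1.39 ± 0.41 above all water libraries of that time (adjusted p = 0.0097, and 1.33 after scaling). For Bra000310 this difference was 0.61 ± 0.23 (adjusted p = 0.036, and 0.56 after scaling, adjusted p = 0.0519). Over all 23 genes named in the study, 19 were tested, 4 rose and 3 fell on the deposited FPKM, and 3 rose and 4 fell after scaling. The shares over all tested genes were 22.4% and 11.6% on the deposited FPKM, and 9.48% and 17.8% after scaling. A departure of the named genes from these shares was not tested.

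The course with flg22 was next set against that of discs kept in water for the same times, which shares no library with it. In water 483 genes rose (2.17%) and 354 fell (1.59%) among the same 22304 genes (446, or 2%, and 367, or 1.65%, after scaling). Of the water rises 341 were also flg22 rises, which is 70.6% of the water list and 6.82% of the flg22 list, and of the water falls 143 were flg22 falls (40.4% and 5.55%). After scaling the shared rises were 267 (59.9% of the water list and 12.6% of the flg22 list) and the shared falls 204 (55.6% and 5.14%). On the deposited FPKM a further 36 genes that rose with flg22 fell in water, and 13 that fell with flg22 rose in water. Across the tested genes the 2 courses had a Pearson correlation of 0.32 on the deposited FPKM, given as a description, since genes are not independent replicates.

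The difference of the courses was tested gene by gene. On the deposited FPKM 4167 genes had a course at least 2-fold higher with flg22 than in water (18.7%) and 2107 a course at least 2-fold lower (9.45%), and after scaling these were 1679 (7.53%) and 3306 (14.8%). Of the 4998 genes that rose with flg22, 3461 (69.2%) rose further than in water by this test and 2 less far, and of the 2577 that fell, 1920 (74.5%) fell further and none less far. The same flg22 libraries enter both the choice of these genes and the test, so these shares are a description. For the genes that fell on both scales the median change was -1.81 with flg22 and -0.15 in water (-2.29 and -0.17 after scaling), and for those that rose it was 1.89 and 0.23 (1.44 and 0.20 after scaling).

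Chitin gave the course most like that of flg22, again from libraries that are not shared. With chitin 4055 genes rose (18.2%) and 2836 fell (12.7%), and after scaling 1889 (8.47%) and 4389 (19.7%). Shared rises numbered 2853, which is 57.1% of the flg22 list and 70.4% of the chitin list, and shared falls 1787 (69.3% and 63.0%). After scaling these were 1080 (51.1% and 57.2%) and 3037 (76.5% and 69.2%). On the deposited FPKM 8 of the flg22 rises fell with chitin, and of the flg22 falls 10 rose. The Pearson correlation across the tested genes was 0.83 on the deposited FPKM, with an SD of the changes of 1.27 with flg22 and 1.08 with chitin.

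The courses of the 2 elicitors differed for fewer genes, and the lower course with flg22 reached the larger sizes. The flg22 course was higher for 780 genes (3.5%) and lower for 690 (3.09%), and after scaling for 517 (2.32%) and 913 (4.09%). At 4-fold and beyond the deposited FPKM gave 97 higher and 255 lower, and scaling gave 66 and 295. Of the flg22 falls, 618 of 2577 (24.0%) went further than with chitin and 11 less far, and of the flg22 rises, 422 of 4998 (8.44%) went further and 5 less far. As with water, the flg22 libraries enter both the choice of these genes and the test. That favours further over less far, so these shares are a description. The counts of higher and lower courses rest on few libraries. Leaving out 1 library at a time gave 419 to 1263 higher and 423 to 1014 lower. Higher genes fell to 468 and 428 without replicate 1 or 3 of 180 min flg22, to 456 and 490 without replicate 2 or 3 of 30 min chitin, and to 419 and 487 without replicate 1 or 2 of 180 min chitin, and rose to 1263 without replicate 1 of 30 min chitin. Lower genes fell to 423 without replicate 3 of 180 min flg22, to 440 without replicate 3 of 30 min chitin and to 443 without replicate 2 of 180 min chitin.

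The 690 genes with the lower flg22 course started higher and ended lower than with chitin. Their median FPKM was 70.8 to 75.1 at 30 min and 4.64 to 7.07 at 180 min of flg22, against 35.0 to 52.0 and 14.4 to 17.2 with chitin and 2.92 to 6.15 over both times in water. The 780 genes with the higher flg22 course went from 4.47 to 5.06 FPKM up to 10.5 to 12.7 with flg22, and from 6.14 to 8.56 down to 4.35 to 6.78 with chitin, while water libraries had 12.8 to 19.9. The first set was thus nearer to water at 180 min of flg22 than of chitin, and so was the second, as a description of sets chosen with these values.

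Single genes are given as examples, and those with the largest differences from chitin were picked for these values. Bra032177 (A04, 10650901 to 10651161) had the largest negative difference from chitin: it went from 457, 454 and 633 FPKM to 3.44, 1.44 and 0.522 with flg22 and from 138 ± 38.9 to 16.0 ± 8.07 (SD, n = 3) with chitin. The difference of the courses was -4.55 ± 0.62 (adjusted p = 0.000256, and -4.57 after scaling). Bra010367 fell by 2.28 ± 0.38 with chitin, and its course differed by -4.06 ± 0.54 (adjusted p = 0.000215, and -4.14 after scaling). LYK5 fell by 2.92 ± 0.30 with chitin, from 81.6 ± 23.0 to 9.65 ± 1.29 FPKM (SD, n = 3), and its course with flg22 was lower by 1.61 ± 0.42 (adjusted p = 0.0203, and -1.64 after scaling). Without replicate 2 of 30 min flg22 the LYK5 difference was -1.45 (adjusted p = 0.056), and without replicate 3 of 180 min flg22 it was -1.36 (adjusted p = 0.0697). For BraNHL10 the difference of -2.11 ± 0.76 missed the threshold (adjusted p = 0.0834, and -2.22 after scaling, adjusted p = 0.0554).

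Among higher courses, Bra008519 (A02, 15155724 to 15157563) stood first. With flg22 it went from 1.88, 2.52 and 7.78 FPKM to 123, 118 and 85.7, above every other library of the series, and with chitin from 3.95 ± 2.16 to 11.1 ± 2.68 (SD, n = 3). Its rise of 4.60 ± 0.45 exceeded that with chitin by 3.23 ± 0.63 (adjusted p = 0.00404, and 3.13 after scaling). For some of the enzyme genes the flg22 course was the lower one. The endochitinase gene Bra000310 rose with chitin by 2.11 ± 0.26, from 29 ± 6.47 to 128 ± 18.5 FPKM, and the flg22 course was lower by 1.67 ± 0.37 (adjusted p = 0.00893, and -1.77 after scaling). CYP79B3 rose with chitin from 7.12 ± 2.82 to 75.3 ± 3.68 FPKM, and the flg22 course was lower by 1.92 ± 0.53 (adjusted p = 0.0278, and -2.01 after scaling). Leaving out 1 library took the CYP79B3 difference past the threshold in 6 cases, with adjusted p-values of 0.0556 to 0.0773: each replicate of 180 min flg22 except the second, replicates 2 and 3 of 30 min flg22, and replicates 1 and 2 of 180 min chitin. The other enzyme genes missed the threshold against chitin. For UGT74B1 the difference from chitin was -0.85 ± 0.56 (adjusted p = 0.354, and -0.96 after scaling). For APK2 it was -1.44 ± 0.57 (adjusted p = 0.12, and -1.53 after scaling). For S-adenosylmethionine synthase 3 it was -1.30 ± 0.66 (adjusted p = 0.226, and -1.40 after scaling).

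**Figure D5:**
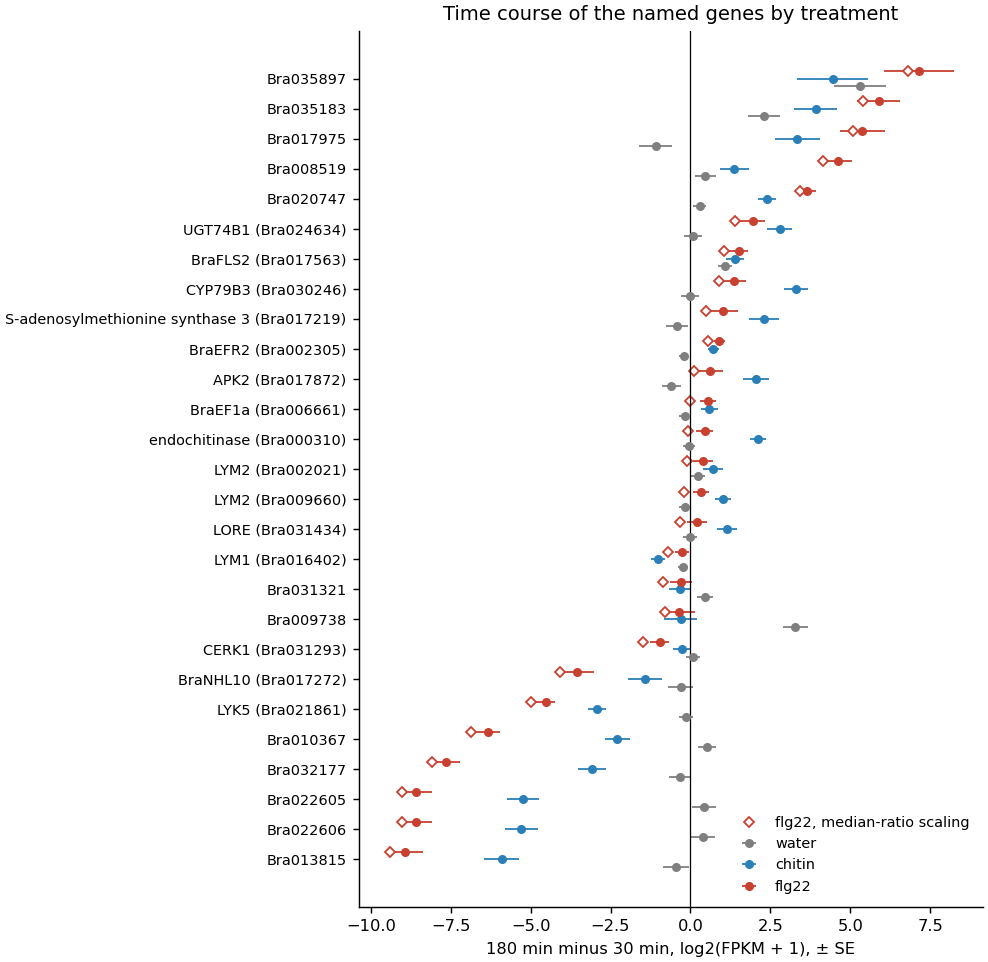
Change from 30 to 180 min (horizontal axis, log2(FPKM + 1), ± SE) of the 27 tested named genes with water, chitin and flg22 on the deposited FPKM, and with flg22 after median-ratio scaling (open diamonds). The flg22 changes run from -8.92 (Bra013815) to 7.15 (Bra035897), and the diamonds lie below the filled flg22 points by about the shift of the median gene.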

How the data were processed

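Total RNA of leaf discs was made into stranded mRNA libraries and sequenced. According to the methods and the submitters' processing notes, the authors trimmed reads with Trimmomatic (version 0.36), mapped them to the B. rapa v1.5 chromosomes with HISAT2 and quantified genes with StringTie (version 2.0); whether strand was used in counting is not given in the sources used here. The authors deposited 1 table per library with FPKM (relative to gene length and library total), TPM (summing to a fixed total per library) and coverage, a signal per base. Read counts were not analysed here.

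Samples were grouped by the labels. From the deposited FPKM, limma (version 3.58.1, R version 4.3.3; mean-variance trend, all 23 libraries, 1 coefficient per condition) was run on log2(FPKM + 1), on the 22304 genes reaching 1 FPKM in 3 or more of the 6 flg22 libraries, and the fit was tested on simulated data. P-values are Benjamini-Hochberg adjusted over these genes. Differences of courses are interaction contrasts. Median-ratio scaling used 17580 genes above 1 FPKM in every library. Aligned gigabases come from the ratio of coverage to FPKM, and no pair of libraries shared more than 0.00378% of its values. TPM served for shares of the transcript pool and as an alternative unit. Figures were drawn with Python (version 3.11.15) and matplotlib (version 3.10.9).

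Named genes are all those the study names by identifier, the 2 largest rises and falls with flg22, and the largest positive and negative difference from the water and chitin courses, among called genes with a mean FPKM of at least 10, no flg22 library at 0 and no overlap between the times. The replicates of the 2 times were not treated as pairs in the main fit. The deviations of same-numbered replicates correlated at 0.09, 0.14 and 0.07, and those of other numbers at -0.09 to -0.03. A fit with the replicate number as a block was run as an alternative. The members and lists were chosen with earlier results of these data known. The study kept separate water controls for chitin and for flg22. The labels of the water libraries do not name that division. The study lists the mapped reads of each control separately, but these totals were not used here to assign the libraries. All water libraries were used for both, and the division by control was not run.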

Additional observations from a re-analysis of the deposited data

Results flagged for a closer look

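Between courses, 28 of 54 differences of named genes passed an adjusted p of 0.05 by the limma interaction contrast, at any size of difference. Over all 22304 tested genes the same threshold gave 8890 higher and 2873 lower courses against water, and 1226 and 821 against chitin. The count of 28 pools both comparisons, and an excess over these background counts was not tested. Against water the flg22 course was lower, on the log2 scale, by -1.04 for CERK1 (Bra031293), -4.40 for LYK5 (Bra021861), -3.23 for BraNHL10 (Bra017272), -6.85 for Bra010367, -3.65 for Bra009738, -8.46 for Bra013815, -9.00 for Bra022606, -9.01 for Bra022605 and -7.31 for Bra032177. It was higher by 1.11 for BraEFR2 (Bra002305), 3.37 for Bra020747, 1.21 for APK2 (Bra017872), 1.39 for CYP79B3 (Bra030246), 1.86 for UGT74B1 (Bra024634), 1.43 for S-adenosylmethionine synthase 3 (Bra017219), 3.59 for Bra035183, 6.47 for Bra017975 and 4.14 for Bra008519. Against chitin it was lower by -1.61 for LYK5, -4.06 for Bra010367, -1.92 for CYP79B3, -1.67 for the endochitinase gene Bra000310, -3.01 for Bra013815, -3.31 for Bra022606, -3.34 for Bra022605 and -4.55 for Bra032177, and higher by 1.27 for Bra020747 and 3.23 for Bra008519. The genes with identifiers only were in part chosen for these differences.

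Several of these calls were lost when 1 library was left out, while the sign of the difference stayed. For APK2 the difference from water (adjusted p = 0.0497) was lost without any 1 of the 6 flg22 libraries and without water replicates 2-s13, 3-s17 or 3-s21 of 30 min or 1-s3, 2-s15, 3-s19 or 3-s23 of 180 min (0.96 to 1.35). For S-adenosylmethionine synthase 3 (adjusted p = 0.0461) it was lost without any flg22 library but replicate 3 of 30 min, and without water replicates 3-s17 or 3-s21 of 30 min or 1-s3, 2-s15 or 3-s23 of 180 min (1.12 to 1.5). For CYP79B3 the difference from water was lost without flg22 replicate 1 of 30 min (0.97) or 2 of 180 min (1.23), and for CERK1 without flg22 replicate 2 of 30 min or 3 of 180 min (-0.97 in both). After median-ratio scaling the differences from water of APK2 (0.72), CYP79B3 (0.94) and S-adenosylmethionine synthase 3 (0.92) also missed the threshold. With all libraries kept, APK2 also missed it with a pseudocount of 0.1 (adjusted p = 0.0508) and with the filter over all libraries (adjusted p = 0.0527). Against chitin, Bra020747 (adjusted p = 0.0473) was lost without any 1 of the 12 libraries but replicate 3 of 180 min chitin (1.06 to 1.42), and Bra013815 without replicate 3 of 180 min flg22 (-2.67), replicate 3 of 30 min chitin (-2.65) or replicate 2 of 180 min chitin (-2.86).

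In 6 of 58 sets of water libraries, each 1 gene at 1 time, 1 library stood far from the others, in that its gap to the nearest library, as a share of the whole range, passed Dixon's critical value at the 0.05 level. A value at that level is built to pass about 1 set in 20 by chance. At 30 min these were UGT74B1 in replicate 3-s17 (102 FPKM) and Bra013815 in replicate 1-s1 (37.3 FPKM). At 180 min they were Bra031321 in replicate 3-s19 (4.98 FPKM), Bra000310 in replicate 1-s7 (41.6 FPKM), Bra008519 in replicate 2-s11 (35.4 FPKM) and Bra032177 in replicate 1-s7 (3.47 FPKM), all of them the highest of their set.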

How the results depend on the processing

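Median-ratio scaling changed the flg22 course from 4998 to 2115 higher and from 2577 to 3968 lower, the chitin course from 4055 to 1889 and from 2836 to 4389 (run after seeing the data), the difference from water from 4167 to 1679 and from 2107 to 3306, and that from chitin from 780 to 517 higher. It turned the sign of the flg22 course for 5 named genes that were not called: Bra002021 (-0.10), Bra009660 (-0.21), Bra031434 (-0.33), Bra006661 (-0.00126) and Bra000310 (-0.0859). A log2 limit of 2 left 898 higher and 1115 lower for the flg22 course, 717 and 1048 against water, and 97 and 255 against chitin, and unadjusted p-values gave 1337 and 1131 against chitin. Leaving out 1 library gave 4408 to 5691 higher and 2401 to 2709 lower for the flg22 course, 3567 to 4890 and 1959 to 2273 against water, and 419 to 1263 and 423 to 1014 against chitin. Over 32 choices of 1 water library per time and number, the difference from water ranged from 3121 to 6210 and from 1925 to 2421. The replicate block gave 5004 higher and 2583 lower for the flg22 course, 4189 and 2115 against water and 856 and 739 against chitin; the same-numbered replicates correlated at 0.09, 0.14 and 0.07 in their deviations, each more than with other numbers. The block took the calls of APK2 and S-adenosylmethionine synthase 3 against water (adjusted p = 0.0623 and 0.058) and of Bra020747 against chitin (adjusted p = 0.051). Other pseudocounts, filters and units kept each count within 1.5 times. With 3 libraries per time and no read counts, small changes and genes at low FPKM could not be resolved, and a 0 may be a failed estimate: 14 flg22 values were 0 where the median of their replicates was at least 10.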
